A study of Homo sapiens with 6 samples.

Results

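The genes described here are the protein-coding genes of chromosome 4, taken in their order along the chromosome. A row of the expression table was a member when GENCODE 29 annotated it as protein-coding on chromosome 4 and its mean over all libraries was at least 1 FPKM, that is, fragments per kilobase of transcript in a library of fixed size. Of 65198 rows, 745 were protein-coding rows of chromosome 4, and 436 of these were members. The chromosome itself was chosen on measured values, because its ratios between the groups were already known to shift along its length. All shifts by position are therefore descriptions of these 6 libraries, without a test. The means closest above the minimum were those of SLC26A1, STBD1 and LRP2BP, at 1.02, 1.15 and 1.19 FPKM, and closest below were those of CCSER1 at 0.984, FAM218A at 0.925 and HPGD at 0.910 FPKM.

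The libraries came from the human breast adenocarcinoma line MDA-MB-231, of basal-like type. One derivative carried a tetracycline-inducible hairpin RNA against HOTAIR (Tet-shHOTAIR) and the other an inducible hairpin of scrambled sequence (Tet-shCtrl). Both were induced with 1 µg/ml doxycycline for 96 h, so the control shared the drug and the hairpin machinery, and 3 libraries of poly(A) RNA were made from each. The comparison asks how transcript levels differed when HOTAIR, a long non-coding RNA made from the HOXC locus, was targeted. No source used here says whether each derivative was 1 clone or a pool, and the hairpin and the history of the derivative cannot be told apart. The labels do not say that the 3 libraries of a group came from separate cultures, so the spread between them may be technical.

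HOTAIR was listed at 0, 0.0128 and 0.0132 FPKM in shCtrl 1, 2 and 3, and at 0, 0 and 0.0113 FPKM in shHOTAIR 1, 2 and 3. These levels are too low to check the knockdown. All 6 markers listed as present in this line (VIM, CD44, KRT18, KRT8, AXL and CAV1) were abundant, with 114 FPKM as the lowest value of any. Their levels were not alike in the groups: VIM was at 906 to 977 FPKM in shCtrl and 361 to 411 FPKM in shHOTAIR. KRT18, KRT8, AXL and CAV1 were higher in shHOTAIR without overlap, and the groups overlapped for CD44. PGR was listed at 0, ESR1 and CDH1 reached at most 0.0947 and 0.114 FPKM, and ERBB3, listed as low, lay between 4.94 and 13.2 FPKM. Summed leukocyte markers reached at most 1.58 FPKM and endothelial markers 0.495 FPKM. Summed fibroblast markers were 1.31 to 2.196 FPKM in shCtrl and 3.68 to 4.19 FPKM in shHOTAIR. COL1A1 was the largest part in every library, at 1.08 to 1.58 FPKM in shCtrl and 3.27 to 3.82 FPKM in shHOTAIR, and the markers' part in the results was not tested. Pearson correlations of log2(FPKM + 1) over 11587 protein-coding genes were 0.990 to 0.994 within groups and 0.966 to 0.973 between groups.

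A gene's transcript level depends on its own promoter and enhancers, on the chromatin around it and on the number of copies of the gene in the cell. Neighbours on a chromosome can share the last features while they differ in the first, and a pair of genes that start back to back can share a promoter as well. Chromosome 4 is poor in genes. Its short arm carries HTT, which is expanded in Huntington disease, and the histone methyltransferase gene NSD2, and its long arm carries the clustered CXC chemokine genes, the alcohol dehydrogenases and, close to the end, FRG1 beside the repeat array linked to a muscular dystrophy. DNA and chromatin were not analysed here.

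4 promoters show RefSeq starting points of the genes on which the description turns. TENM3 and DCTD are the members on either side of the sharpest step along the chromosome, and SULT1B1 and DCLK2 were the members farthest below and above their surroundings. Each run gives 250 bases before and 50 bases after the RefSeq start on GRCh38.p14, 5′ to 3′ on the gene's strand, with CG dinucleotides in capitals. TENM3 was read at chr4:182143713-182144012 (plus strand), DCTD at chr4:182917562-182917861 (minus), SULT1B1 at chr4:69760571-69760870 (minus) and DCLK2 at chr4:150078195-150078494 (plus).
TENM3: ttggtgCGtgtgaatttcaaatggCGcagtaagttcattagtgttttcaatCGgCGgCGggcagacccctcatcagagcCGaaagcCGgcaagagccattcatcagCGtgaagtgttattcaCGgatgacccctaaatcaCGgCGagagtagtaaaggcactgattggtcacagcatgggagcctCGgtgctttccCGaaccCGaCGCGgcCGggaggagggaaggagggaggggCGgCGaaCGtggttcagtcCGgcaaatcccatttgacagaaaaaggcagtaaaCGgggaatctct
DCTD: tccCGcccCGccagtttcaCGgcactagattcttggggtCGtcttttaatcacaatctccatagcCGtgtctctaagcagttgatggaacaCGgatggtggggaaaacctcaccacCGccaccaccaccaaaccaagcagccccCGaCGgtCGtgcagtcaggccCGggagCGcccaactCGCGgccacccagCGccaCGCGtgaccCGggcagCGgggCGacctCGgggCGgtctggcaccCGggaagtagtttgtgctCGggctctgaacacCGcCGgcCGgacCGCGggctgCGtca
SULT1B1: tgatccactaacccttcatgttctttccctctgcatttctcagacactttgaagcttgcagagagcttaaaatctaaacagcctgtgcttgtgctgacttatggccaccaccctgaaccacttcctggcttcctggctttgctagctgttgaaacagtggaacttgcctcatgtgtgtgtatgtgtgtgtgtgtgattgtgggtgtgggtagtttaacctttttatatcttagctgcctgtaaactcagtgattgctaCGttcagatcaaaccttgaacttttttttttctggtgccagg
DCLK2: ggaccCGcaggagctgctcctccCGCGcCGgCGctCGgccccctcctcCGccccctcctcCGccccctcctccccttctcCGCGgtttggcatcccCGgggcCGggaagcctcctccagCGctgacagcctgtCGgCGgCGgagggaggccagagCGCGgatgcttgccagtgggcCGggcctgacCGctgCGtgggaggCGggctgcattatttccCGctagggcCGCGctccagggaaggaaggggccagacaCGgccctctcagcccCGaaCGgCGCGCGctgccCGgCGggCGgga
The letters CG occurred 22 times at TENM3, 30 at DCTD and 34 at DCLK2, but 1 time at SULT1B1. The motif TATAAA, searched on both strands, was found at SULT1B1 and at none of the other 3. It was in 5.33% of the 375 members with a RefSeq promoter (61 had none in the table) and in 11.95% of all 27305 promoters. A match is a description of the letters only.

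Along the chromosome, genes of the short arm were lower in shHOTAIR, genes of most of the long arm were higher, and genes of the last stretch of the long arm were the lowest. Changes are differences of the mean log2(FPKM + 1), shHOTAIR minus shCtrl. The median change of the 137 short arm members was -0.37, and the median ratio of mean FPKM was 0.744. In the first, middle and end part of the long arm, which was cut into 3 parts of equal length, the medians were 0.31 (108 members), 0.34 (97 members) and 0.22 (94 members). The median over all 436 members was 0.16, beside -0.03 over all protein-coding genes tested. In bulk RNA, a gene at a lower level in each cell and a gene lost from some of the cells cannot be told apart.

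A gene was called when its Benjamini-Hochberg adjusted p in limma was below 0.05, over all 15934 genes tested. In that fit 23.8% of all genes and 28.7% of protein-coding genes were called. On chromosome 4, 130 members were called higher and 101 lower, beside backgrounds of 13.8% higher and 14.9% lower among protein-coding genes. The 3 values of one group lay wholly outside those of the other in 318 members, beside 49.7% of protein-coding genes. Since the chromosome was chosen on this contrast, nothing is read from these shares. Without shCtrl 1 or shCtrl 3, the members called higher numbered 79 or 83. Of the short arm members, 3 were called higher and 68 lower. In the middle part of the long arm, 54 were called higher and 0 lower by limma, and 0 were lower at an unadjusted p below 0.05. The end part held both directions, with 31 called higher and 27 lower. Most called changes were small, with a median size of 0.55, and 29 of 231 reached a size of 1, 8 of them higher and 21 lower.

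**Figure D1:**
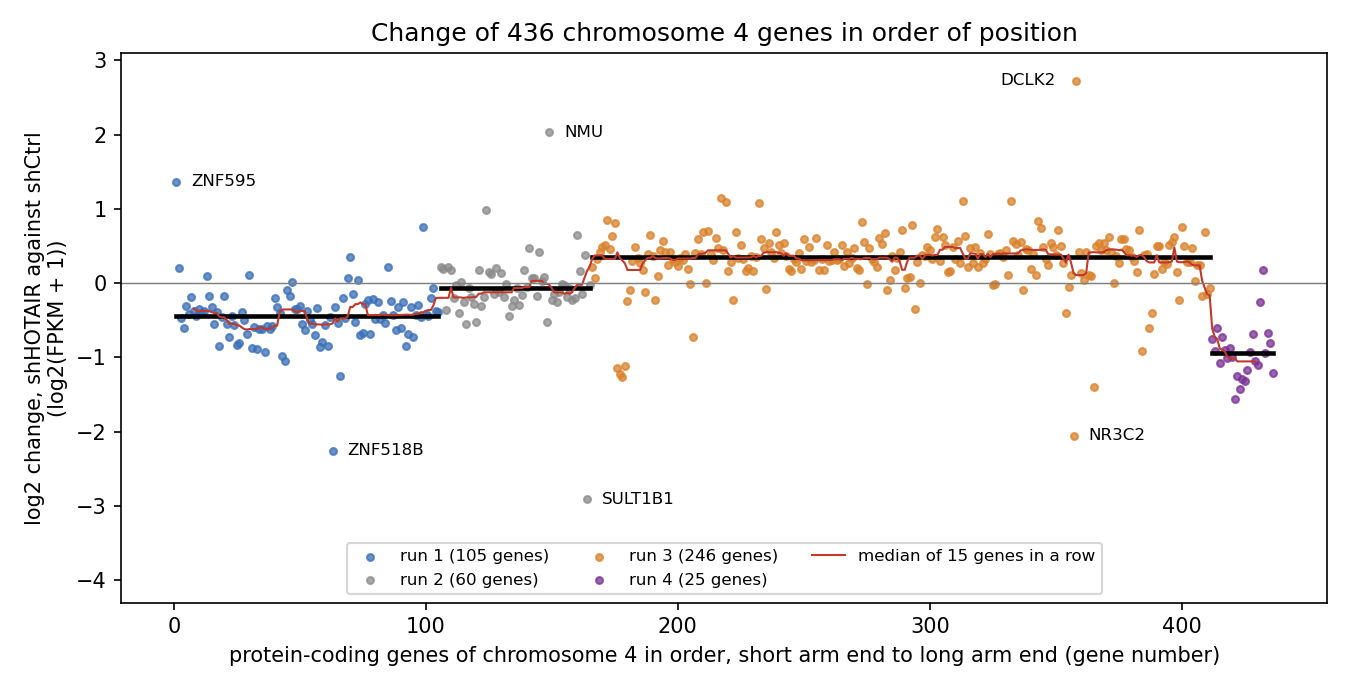
Change in log2(FPKM + 1), shHOTAIR minus shCtrl, of each of 436 members (vertical axis) in order along chromosome 4 (horizontal axis, gene number from the short arm end). Colours mark 4 runs, black bars their medians of -0.44, -0.07, 0.35 and -0.94, and the red line the median of 15 members in a row.

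The borders were then placed by the data, as the 4 runs of at least 10 members with the least summed absolute deviation from their own medians. Run 1 reached from ZNF595 to KLF3 (0.0533 to 38.7 Mb) with 105 members, a median change of -0.44 and a median ratio of 0.722. Run 2 reached from TLR1 to HTN3 (38.8 to 70.0 Mb, across the centromere) with 60 members, a median of -0.07 and a ratio of 0.957. Run 3 reached from UTP3 to TENM3 (70.7 to 182.8 Mb) with 246 members, a median of 0.35 and a ratio of 1.31. Run 4 reached from DCTD to FRG1 (182.9 to 190.0 Mb) with 25 members, a median of -0.94 and a ratio of 0.456. The end part of the long arm thus joined the last part of run 3 with run 4. Called members were 2 higher and 63 lower in run 1, 4 and 7 in run 2, 124 and 9 in run 3, and 0 and 22 in run 4, where limma gave 0 higher also at an unadjusted p below 0.05.

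Each shHOTAIR library showed the same order of runs. Set against the shCtrl mean of each gene, the median of run 1 was -0.46, -0.45 and -0.47 in shHOTAIR 1, 2 and 3, that of run 3 was 0.39, 0.33 and 0.35, and that of run 4 was -1.03, -0.93 and -0.89. In run 2 it was -0.04, -0.13 and -0.11, and the run median of -0.07 became -0.11 without shCtrl 1. The shCtrl libraries lay between -0.03 and 0.04 in all 4 runs. In run 2, shHOTAIR 1 came closest to the shCtrl libraries, and in runs 1, 3 and 4 the groups stood far apart.

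**Figure D2:**
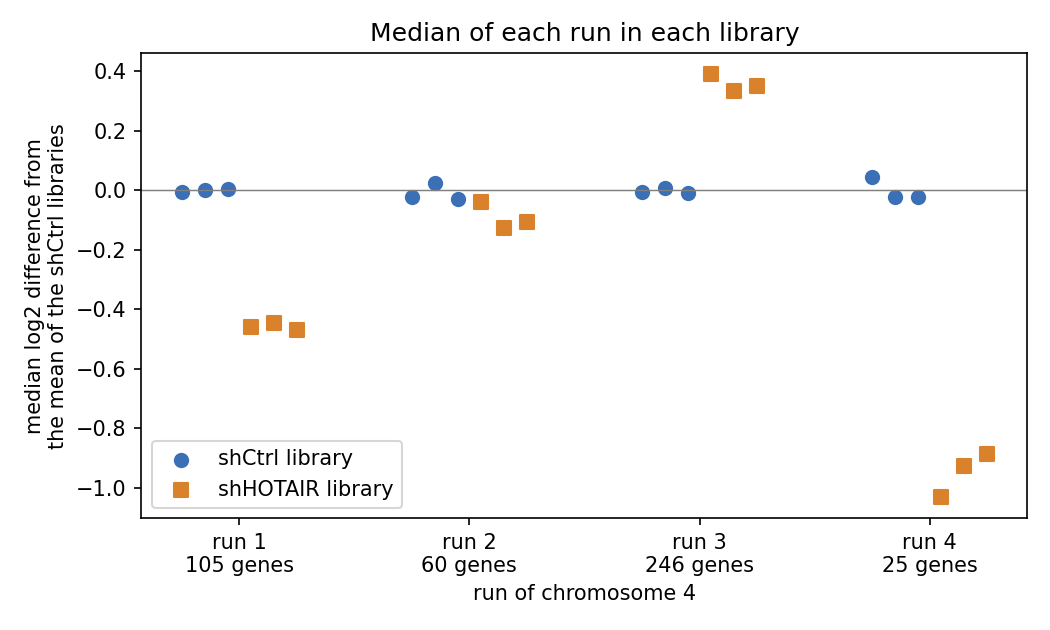
Median over the members of each run (horizontal axis) of the log2(FPKM + 1) difference from the shCtrl mean (vertical axis), 1 point per library, circles for shCtrl and squares for shHOTAIR. The shHOTAIR squares lie from -1.03 to -0.89 in run 4 and from 0.33 to 0.39 in run 3, while the circles stay near 0.

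Bins of 10 Mb were cut without use of the changes. In order, the first 3 bins had medians of -0.46, -0.45 and -0.43, the next 3 of -0.19, -0.14 and -0.05, and the bins from 70 to 180 Mb between 0.25 and 0.43. The last bin, from 180 Mb on, was at -0.93. With 15 members in a row, the highest median was 0.49 around BBS7 and the lowest -1.05 around PRIMPOL. A 2-run description left 74.97% of the deviation around a single median, 3 runs left 61.8%, 4 runs 58.0% and 7 runs 56.6%. The step from 3 to 4 runs was thus small beside the earlier ones, and runs beyond 4 took away less still. The number of 4 runs was a setting and was not derived from these shares. With 3 runs the borders lay at IGFBP7 (57.0 Mb) and DCTD.

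The step into run 4 lay in a gap of 87.0 kb between TENM3 and DCTD. TENM3, a teneurin of the cell surface, was at 7.08, 7.62 and 7.36 FPKM in shCtrl 1, 2 and 3, against 6.89, 6.52 and 7.69 FPKM in shHOTAIR 1, 2 and 3. DCTD, the deaminase that turns dCMP into dUMP, was at 162, 139 and 133 FPKM in shCtrl, against 77.3, 86.3 and 92.2 FPKM in shHOTAIR. The groups overlapped for TENM3 and did not for DCTD, a ratio of 0.591. Of the 4 members before the step, 3 had changes below 0. AGA (ratio 0.897) and TENM3 (0.957) had overlapping groups, and VEGFC, a growth factor of lymphatic vessels, was at 48.1, 47.5 and 45.9 FPKM in shCtrl and 44.2, 41.1 and 40.6 FPKM in shHOTAIR, without overlap but not called. NEIL3, a DNA glycosylase, was at 13.8 ± 0.918 FPKM in shCtrl and 22.8 ± 1.09 in shHOTAIR (SD, n = 3). Of the last 25 members before the step, 10 were called higher and 1, MSMO1, lower, with a median of 0.25.

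**Figure D3:**
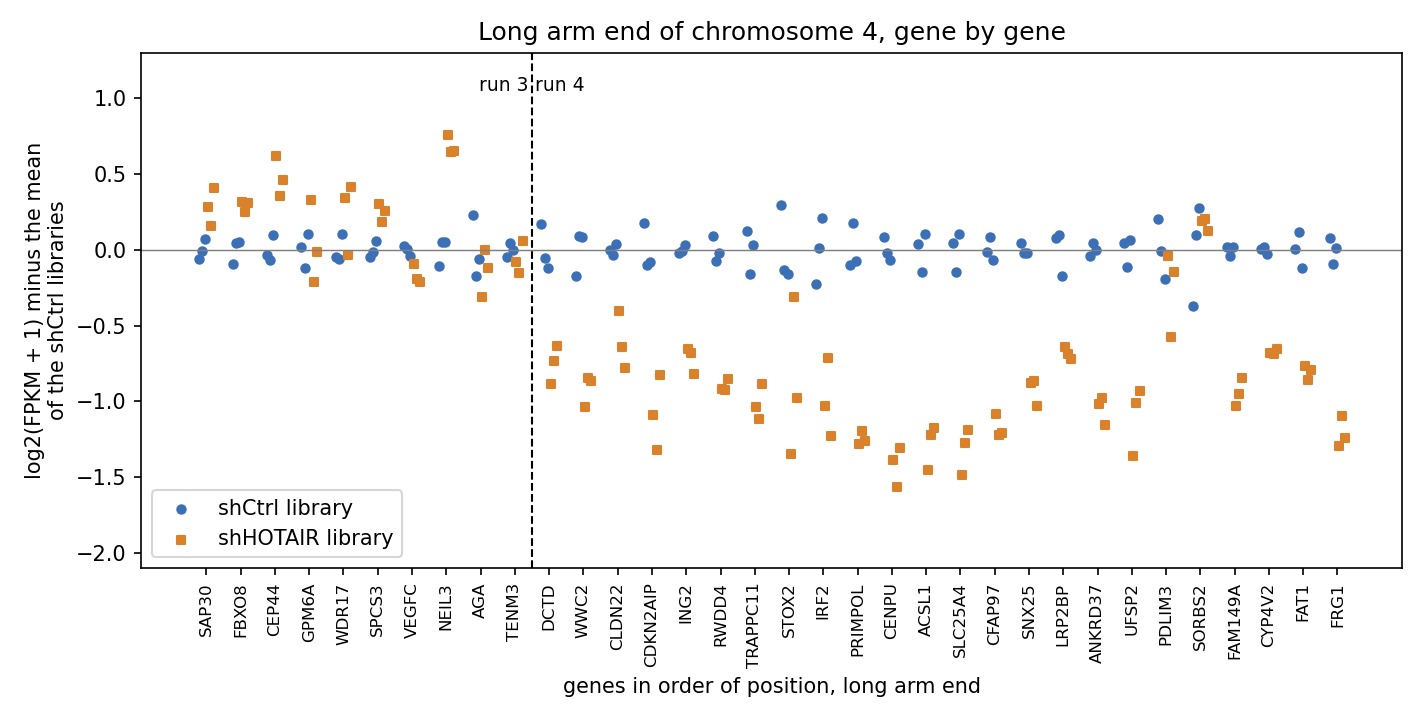
Members from the end of the long arm in order, without 1 gene that is not reported here (horizontal axis), with log2(FPKM + 1) of each library minus the shCtrl mean of that gene (vertical axis), circles for shCtrl and squares for shHOTAIR. Right of the dashed line the squares lie below the circles in all genes but PDLIM3 and SORBS2.

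The other borders were less sharp. The step at DCTD was found in every alternative run. Of these, no minimum, the replicate block, robust eBayes and limma without trend leave each change as it is and could not move a border. By contrast, border 1 moved to RELL1 (37.6 Mb) under several settings and to PCDH7 (30.7 Mb) without shCtrl 1. Border 2 moved to GRSF1 (70.8 Mb) or IGFBP7 (57.0 Mb). At border 1, KLF3, a repressor of the Krüppel-like family, had a ratio of 0.744 and TBC1D1, a Rab GTPase-activating protein of glucose uptake, one of 0.770. On the far side the Toll-like receptors TLR1 and TLR6, whose gene spans overlap, had ratios of 1.304 and 1.15 with overlapping groups. At border 2, HTN3 (histatin, a salivary peptide) had a ratio of 0.977, and UTP3 and RUFY3 had ratios of 1.17 and 1.06. The groups did not overlap for UTP3, which acts in ribosomal RNA processing.

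Of the 25 members of run 4, 22 were called lower. CENPU, a centromere protein, was at 229, 212 and 206 FPKM in shCtrl and 81.8, 72.4 and 86.5 FPKM in shHOTAIR, a ratio of 0.371. Its highest shHOTAIR value was below 0.5 of the lowest shCtrl value. PRIMPOL, a primase-polymerase that restarts stalled forks, lies beside it and had a ratio of 0.402. CENPU and PRIMPOL overlap at their ends on opposite strands, and the strand setting of the counting was not given in the sources used here.

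Members of run 4 with other roles were lower by different amounts. SLC25A4, the mitochondrial ADP/ATP carrier, was at 10.4 ± 1.01 FPKM in shCtrl and 3.57 ± 0.474 in shHOTAIR (SD, n = 3). ACSL1, which activates long-chain fatty acids, was at 43.3 ± 3.85 and 17.2 ± 1.81 FPKM. IRF2, an interferon regulatory factor, was at 19.3, 22.9 and 26.4 FPKM in shCtrl and 10.6, 13.4 and 9.09 FPKM in shHOTAIR. FAT1, an atypical cadherin, had a ratio of 0.562, ING2, a reader of histone methylation, 0.556, and TRAPPC11, of the trafficking complex TRAPP, 0.472. CDKN2AIP, a binding partner of ARF, had a ratio of 0.451 and the sorting nexin SNX25 one of 0.495. FRG1, the last member of the chromosome, was at 99.6, 88.6 and 95.5 FPKM in shCtrl and 37.9, 43.6 and 39.4 FPKM in shHOTAIR. FRG1 has near-identical copies on other chromosomes, so its value is uncertain.

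STOX2, PDLIM3 and SORBS2 were the members of run 4 that were not called. STOX2 had a ratio of 0.436, with shHOTAIR values from 0.729 to 2.55 FPKM and shCtrl values from 2.93 to 4.40 FPKM. PDLIM3, a muscle PDZ-LIM protein, had a ratio of 0.823 with overlapping groups. SORBS2, its neighbour and a partner of actin filaments, was at 1.34, 2.24 and 2.66 FPKM in shCtrl and 2.45, 2.49 and 2.31 FPKM in shHOTAIR, with overlapping groups. It was the member of run 4 with a change above 0.

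On the short arm, run 1 held 63 members called lower. RNF4, a ubiquitin ligase for SUMO-tagged proteins, was at 131, 132 and 129 FPKM in shCtrl and 71.9, 69.3 and 72.9 FPKM in shHOTAIR. LETM1, an ion exchanger of the inner mitochondrial membrane, was at 38.0 ± 1.82 and 22.6 ± 0.827 FPKM (SD, n = 3). For both, the groups stood far outside their spread. NSD2 was at 125, 121 and 129 FPKM in shCtrl and 92.6, 96.5 and 86.3 FPKM in shHOTAIR, and HTT had a ratio of 0.668. TACC3, which stabilises spindle microtubules, had a ratio of 0.681, WDR1, an actin-disassembly factor, 0.731, and STIM2, a calcium sensor of the endoplasmic reticulum, 0.718. MRFAP1 was the most abundant member of run 1, at 309 ± 3.44 and 212 ± 14.98 FPKM.

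The largest fall in run 1 was that of ZNF518B, a zinc finger protein. It was at 6.93, 8.65 and 7.40 FPKM in shCtrl, against 0.818, 0.801 and 0.800 FPKM in shHOTAIR, a change of -2.26 (SE 0.108), and passed the minimum through shCtrl alone. CPEB2, a regulator of poly(A) tails, had a ratio of 0.395, and the neighbours LYAR, a nucleolar protein, and ZBTB49 had ratios of 0.501 and 0.415. LYAR and ZBTB49 start 82 bases apart on opposite strands. The members of run 1 called higher were ZNF595 and PCDH7. ZNF595, the first member of the chromosome, was at 7.72, 8.05 and 8.27 FPKM in shCtrl and 20.6, 22.5 and 23.8 FPKM in shHOTAIR. PCDH7, a protocadherin, was at 3.22 ± 0.824 and 6.06 ± 0.904 FPKM (SD, n = 3), and its call was lost under 7 alternatives. These were no minimum, the replicate block, and leaving out shCtrl 1, shCtrl 3 or any 1 shHOTAIR library, with adjusted p up to 0.108 in limma. Zinc finger genes of the ZNF595 kind have close relatives, and the counting could split their reads.

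Run 2 held few called members. RPL9, a protein of the large ribosomal subunit and its most abundant member, was at 1153, 997 and 1067 FPKM in shCtrl and 825, 741 and 870 FPKM in shHOTAIR. RPL9 was called lower, but the call was lost under 6 alternatives. SULT1B1, a sulfotransferase for phenols and thyroid hormone, was at 11.9, 11.02 and 9.69 FPKM in shCtrl and 0.580, 0.634 and 0.521 FPKM in shHOTAIR, a change of -2.91 (SE 0.104). NMU, the neuropeptide neuromedin U, was at 1.23, 1.77 and 1.62 FPKM in shCtrl and 8.68, 8.98 and 10.4 FPKM in shHOTAIR, a change of 2.03 (SE 0.121). SULT1B1 passed the 1 FPKM minimum through shCtrl alone. In both genes the groups stood far apart, in opposite directions. SHISA3, IGFBP7 and SCFD2 were also called higher, with ratios of 2.84, 1.58 and 1.44. The receptor kinase KDR was at 1.44 ± 0.0960 and 2.29 ± 0.421 FPKM, and TEC at 2.94 ± 0.520 and 1.90 ± 0.199 FPKM (SD, n = 3), and neither was called.

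Run 3 held 124 members called higher, most of them by a small step. ANXA5, a calcium-dependent phospholipid binder, was at 866, 891 and 933 FPKM in shCtrl and 1310, 1549 and 1626 FPKM in shHOTAIR. SMARCA5, the ISWI chromatin remodeller, was at 121, 136 and 124 FPKM in shCtrl and 244, 223 and 219 FPKM in shHOTAIR. HNRNPD, which binds AU-rich mRNA, was at 397, 390 and 408 FPKM in shCtrl and 669, 548 and 595 FPKM in shHOTAIR. None of these overlapped, and their ratios were 1.67, 1.80 and 1.52. CCNA2 (cyclin A2) had a ratio of 1.55, ADH5 (the glutathione-dependent formaldehyde dehydrogenase) 1.52, LEF1 (a Wnt transcription factor) 1.51, HMGB2 1.42 and HPF1, a cofactor of PARP1, 1.58. The ribosomal protein gene RPS3A was at 517 ± 20.0 and 571 ± 60.7 FPKM (SD, n = 3), with overlapping groups.

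A few members of run 3 rose by more than their surroundings. DCLK2, a doublecortin-like kinase, was at 4.64, 4.97 and 4.58 FPKM in shCtrl and 39.5, 38.9 and 32.7 FPKM in shHOTAIR, a change of 2.73 (SE 0.0875). PLAC8 was at 45.4, 44.6 and 50.9 FPKM in shCtrl and 106, 107 and 102 FPKM in shHOTAIR. HPSE, the heparanase that cuts heparan sulfate, lies close to PLAC8 and had a ratio of 2.74. MGST2, a microsomal glutathione transferase, had a ratio of 2.25 and FAT4, an atypical cadherin, one of 2.66. SPP1 (osteopontin) was at 0.397, 0.349 and 0.690 FPKM in shCtrl and 2.28, 1.89 and 2.13 FPKM in shHOTAIR, so it passed the minimum through shHOTAIR alone. In all, 5 members had a shCtrl mean below the minimum and 7 a shHOTAIR mean below it.

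Within run 3, 9 members were called lower. NR3C2, the mineralocorticoid receptor, was at 32.4, 29.4 and 33.7 FPKM in shCtrl and 7.05, 6.97 and 6.67 FPKM in shHOTAIR, a change of -2.06 (SE 0.0672). It lies 1.63 Mb from DCLK2, the largest rise. TMEM154 was at 49.7, 43.3 and 48.4 FPKM in shCtrl and 14.8, 19.3 and 17.9 FPKM in shHOTAIR. MARCH1, a membrane ubiquitin ligase, MSMO1, an enzyme of cholesterol synthesis, and TMEM184C had ratios of 0.453, 0.651 and 0.756.

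The other 4 were CXC chemokines, which attract neutrophils and lie side by side. CXCL8 (interleukin-8) was at 103, 64.0 and 60.1 FPKM in shCtrl and 29.9, 32.2 and 36.4 FPKM in shHOTAIR. CXCL1 was at 12.4, 8.35 and 8.31 FPKM in shCtrl and 2.99, 4.01 and 3.59 FPKM in shHOTAIR. In both, shCtrl 1 was the highest library. CXCL3 and CXCL2 had ratios of 0.327 and 0.361, and of 13 listed CXC chemokine genes of the chromosome these 4 passed the minimum. With 7 runs, the stretch from CXCL8 to NAAA (73.7 to 75.9 Mb) became a run of 12 members with a median of -0.10, but its other 8 members held none called lower and 2 called higher, RCHY1 and THAP6. AREG, the EGF family ligand in that stretch, was at 6.14 ± 1.08 and 5.71 ± 0.896 FPKM (SD, n = 3).

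**Figure D4:**
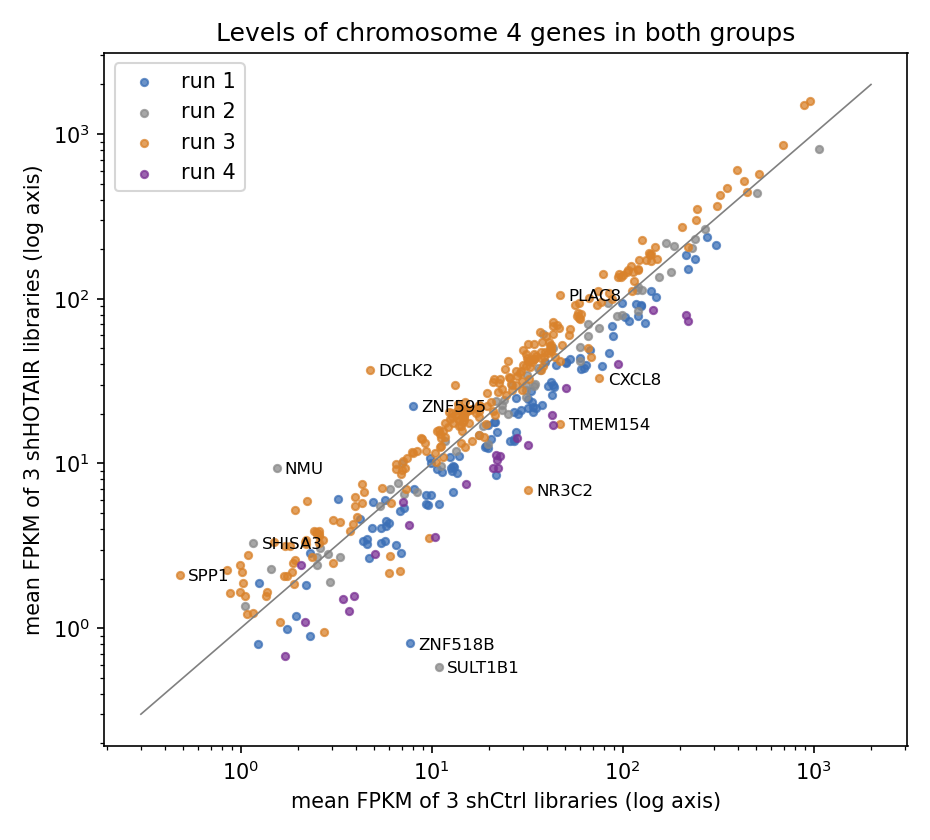
Mean FPKM of each member in 3 shHOTAIR libraries (vertical axis) against 3 shCtrl libraries (horizontal axis), both on log axes, coloured by run, with the line of equal levels. Run 4 lies below the line at nearly all levels and run 3 mostly above it, and the members farthest from their runs are named.

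Genes were also grouped by role, in 17 lists with 214 members among them. The run borders were drawn from the changes of these same genes, so the direction by run is a description and no separate evidence. Against backgrounds of 13.8% called higher and 14.9% lower among all protein-coding genes, and counting each gene once, list members were called higher and lower as 2 and 27 of 43 in run 1, 0 and 3 of 29 in run 2, 62 and 7 of 127 in run 3, and 0 and 13 of 15 in run 4. Of 19 cell cycle and mitosis genes, 9 were called higher, all in run 3 (among them CCNA2, PLK4, MAD2L1 and CENPE), and 5 lower, in runs 1 and 4 (TACC3, KIAA0232, HAUS3, CENPU and CDKN2AIP). Their median change was 0.25, beside -0.03 over all protein-coding genes. Of 14 chromatin and histone genes, 4 were called higher, in run 3 (SMARCA5, HMGB2, JADE1 and SMARCAD1), and 5 lower, in runs 1 and 4 (NSD2, LCORL, NELFA, PCGF3 and ING2), with a median of 0.25. Members of 1 list thus moved in both directions. The lists were broad, and a member, such as KIAA0232 in the cell cycle list, need not act in the process named.

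Of 18 genes of mitochondria and oxidation, 5 were called higher, in run 3 (COX18, HADH, COQ2, PPA2 and NDUFC1), and 4 lower, in runs 1 and 4 (LETM1, LYAR, GRPEL1 and SLC25A4), with a median of 0.06. Of these, LYAR is better known as a nucleolar protein. Of 33 ubiquitin and trafficking genes, 10 were called higher, all in run 3, and 10 lower, 7 in run 1 and 3 in run 4, with a median of 0.01. Of 10 genes in the DNA repair and replication list, 5 were called higher, HPF1, NEIL3, UBE2D3, ZGRF1 and RAP1GDS1, of which RAP1GDS1 is known as a regulator of small GTPases and UBE2D3 as a general ubiquitin-conjugating enzyme, and 0 lower by limma (1, POLN, at an unadjusted p below 0.05), with a median of 0.24. Of 17 genes in the ribosomal protein and translation list, 6 were called higher in run 3, such as GAR1, LARP7 and EIF4E. Called lower were 2, MRFAP1 and RPL9, of which only RPL9 is a ribosomal protein gene. The median was 0.28, and the list also held genes with other roles, such as PAICS and PPAT.

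Of 11 innate immunity and interferon genes, 4 were called higher (HERC3, HERC5, DDX60L and IL15, all in run 3) and 1 lower (IRF2), with a median of 0.42. The calls of HERC5, DDX60L and IRF2 were lost under 5, 4 and 2 alternatives. NFKB1, the p50 subunit of NF-kappaB, had a ratio of 1.14 and was not called. Of 18 nuclear receptors and transcription factors, 3 were called higher and 8 lower, with a median of -0.20, and 10 of the 18 lie in run 1. Of 6 members of a list of receptor kinases and other kinase-related genes and of 2 EGF family ligands, 0 were called by limma. At an unadjusted p below 0.05 stood the receptor KDR, the cytoplasmic kinases BMP2K and TEC, and the ligand EGF. BMP2K was at an adjusted p of 0.0506 and was called under 5 alternatives, and KDR was called by limma without trend. EGF itself was at 1.02 ± 0.478 and 2.199 ± 0.608 FPKM (SD, n = 3) with overlapping groups.

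The remaining lists were mixed in the same way. The lists counted 5 higher and 2 lower of 14 growth factor, Wnt and BMP signalling genes, 2 and 5 of 12 for alcohol and sulfate metabolism, 4 and 1 of 6 for adhesion and cadherins, 6 and 1 of 17 for cytoskeleton and LIM proteins, and 2 and 2 of 16 for transporters and channels. Their medians were 0.26, -0.12, 0.52, 0.17 and 0.03. The list named for alcohol and sulfate metabolism was broader than its name. Among its members called lower, MSMO1 acts in cholesterol synthesis and ACSL1 activates fatty acids. Its counts are therefore not those of alcohol and sulfate enzymes alone.

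Members that start back to back were also set side by side. In 27 pairs, starts on opposite strands lay within 500 bases of each other. Both genes were called lower in 6 pairs and both higher in 6, and in 0 pairs were they called in opposite directions by limma. The backgrounds for single protein-coding genes were 13.8% called higher and 14.9% lower. The genes of each pair lay in the same run, and called members of runs 1, 3 and 4 mostly shared a direction. Nothing is therefore read from these counts. RWDD4 and TRAPPC11 start 42 bases apart and changed by -0.90 and -1.01, LYAR and ZBTB49 by -0.98 and -1.05, and NEK1 and CLCN3, 4 bases apart, by 0.51 and 0.56. The median difference between the genes of a pair was 0.16, beside 0.23 for the 432 neighbours within runs. FBXL5 and FAM200B in run 1 were less alike, at -0.47 and 0.07. Where such pairs overlap, reads of the strands may not have been told apart.

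The runs were also compared on features that did not place the borders. Changes did not turn with strand, with medians of -0.42 and -0.45 for plus and minus strand genes of run 1, 0.34 and 0.37 in run 3, and -0.98 and -0.90 in run 4. Members of run 4 had a median gene length of 34.95 kb, against 70.1 kb in run 3. Promoters of runs 1 and 4 had median CG counts of 33 and 32, against 24.5 and 25 in runs 2 and 3. The longest transcripts of run 1 had a median GC content of 48.8%, against 40.8% in run 3 and 43.1% in run 4. Across all protein-coding genes, cut into 3 equal classes of transcript GC content at 43.3% and 52.7%, the median change was -0.01, -0.02 and -0.07 from low to high. Within these classes, chosen after the values were seen, run 1 had medians of -0.41, -0.50 and -0.42, run 3 of 0.37, 0.33 and 0.38 (4 members in the last), and run 4 of -0.97, -0.99 and -0.85 (2 members in the last). In run 2 they were -0.12, 0.08 and -0.24 (2 members in the last). The part of GC content in the result was not tested.

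Runs 1, 3 and 4 kept their direction at low and high levels, and run 2 did not. For members at 1 to 5, 5 to 50 and at least 50 FPKM, the median ratios were 0.713, 0.723 and 0.722 in run 1, 1.40, 1.29 and 1.32 in run 3, and 0.436, 0.477 and 0.399 in run 4. In run 2 they were 1.07, 0.961 and 0.878. In log2(FPKM + 1) the 7 lowest members of run 4 had a median of -0.68, since the added 1 shrinks changes of low genes. Genes that were not members were less clear. Genes of other types at 1 FPKM or more had medians of -0.23 (30 genes), -0.03 (33), 0.26 (59) and -0.02 (5) in runs 1 to 4. Protein-coding genes between 0.1 and 1 FPKM were below a ratio of 1 in 3 of 10 in run 1, in 8 of 16 in run 2, in 12 of 48 in run 3 and in 3 of 4 in run 4. The low genes of run 1 thus went against the members there.

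Other chromosomes give the scale of these shifts. Of 23 chromosomes, chromosome 4 had the widest middle range of changes, 0.753 between its quartiles, followed by 0.747 on chromosome 13 and 0.685 on X. Cut into windows of 25 protein-coding genes in a row, chromosome 4 had 17 windows with medians from -0.72 to 0.40. The lowest was the last, from 173.3 to 185.15 Mb, which mixed members of runs 3 and 4. Members beyond it, up to FRG1, were in no window. A median of at least 0.3 in size was seen in 13 of 17 windows, or 76.5%, and in 12.9% of 435 windows elsewhere. As chromosome 4 was chosen for its shifts, nothing is read from this contrast. On chromosome 10 all 17 windows were at least 0.3 in size, all lower, and on chromosome 13, 5 of 8 were. The highest window of all, 0.72, lay on X. Windows of at least 0.3 in size were also seen on chromosomes 1, 2, 3, 5, 6, 7, 15, 18, 20 and 21. The lowest of these, -0.67, lay on chromosome 6. Shifts that span many neighbours were therefore not confined to chromosome 4.

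**Figure D5:**
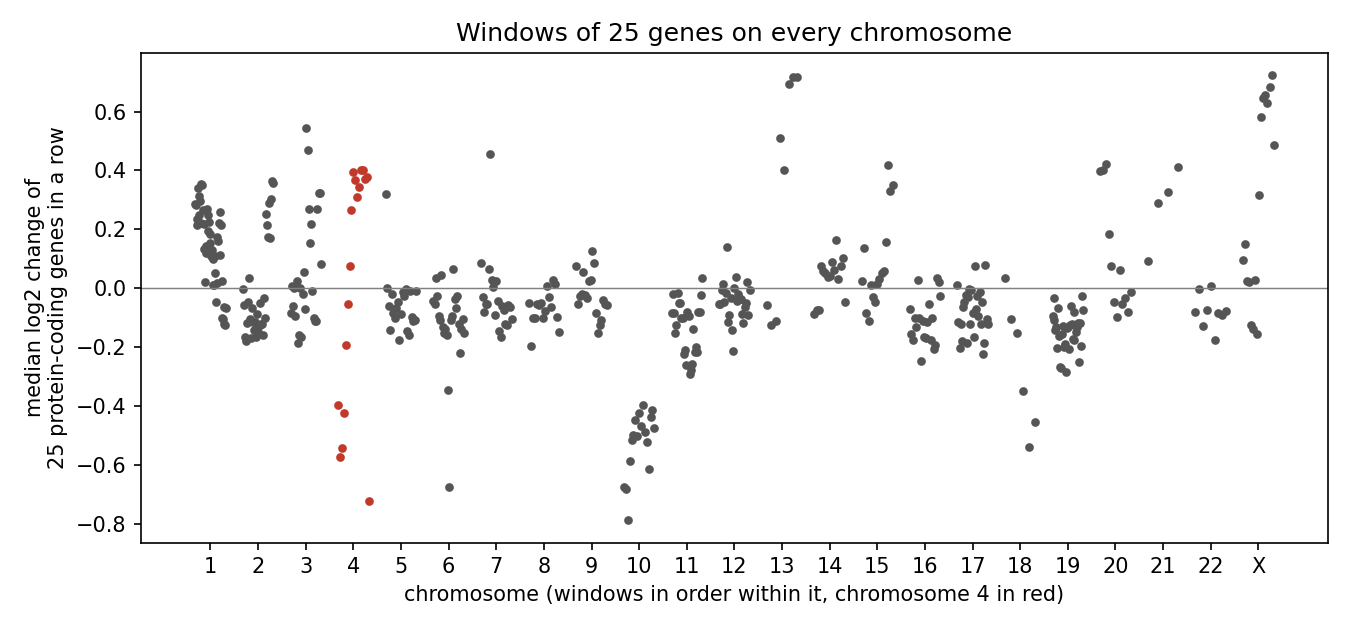
Median change in log2(FPKM + 1), shHOTAIR minus shCtrl, of windows of 25 protein-coding genes in a row (vertical axis) by chromosome (horizontal axis, windows in order), with chromosome 4 in red. The red windows run from -0.72 to 0.40, while chromosome 10 lies wholly below 0.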

How the data were processed

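Poly(A) RNA of 6 libraries, 3 Tet-shCtrl and 3 Tet-shHOTAIR, was compared, grouped by the hairpin named in the labels. The authors deposited FPKM values per gene. The build GRCh38 and the programs TopHat2 2.0.13 and DESeq are named, without their roles, per the submitters' processing notes. No source used here gives the annotation, strand setting or read depth, and counting error is unknown. Of 65198 rows, 56807 matched GENCODE 29 by Ensembl identifier, and type and position on GRCh38 were taken from it. Equal FPKM above 0 in a pair of libraries was seen for at most 0.00628% of genes.

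A mean of 1 FPKM or more was required, which 15934 genes had. They were fitted as log2(FPKM + 1) with limma 3.58.1 in R 4.3.3, using its trend and no block. P-values were adjusted by Benjamini-Hochberg over all of these genes, with a threshold of 0.05. An exact permutation test of 3 against 3 cannot go below 0.1. SE is that of the log2 change. The arms were divided at 50 Mb, and runs were found by dynamic programming on the changes of members in order. The routines were tested on simulated data. The members, lists and tests were chosen with earlier results of these data known, so calls sort the genes and support nothing. Named genes were the largest called rises and falls and the most abundant members of each segment, up to 4 members of each list by p, and the members beside each border and the 1 FPKM minimum. Members against their run, back-to-back pairs and further list members were chosen after their values were seen. Some results on 1 member are not reported here. Promoters came from RefSeq (GRCh38.p14), and transcript GC content from the longest GENCODE 29 transcript.

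Alternatives were pseudocounts of 0.1 and 0.01, no minimum, a minimum of 5 FPKM, quantile normalization, scaling by the median of ratios, a replicate block, leaving out each library, limma with robust eBayes or without trend, plain ratios of means, and a long arm cut by gene number. Medians and borders of the runs under these settings were added after the data were seen.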

Additional observations from a re-analysis of the deposited data

How the results depend on the processing

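The direction of every run and segment median was kept under the alternatives run. No minimum, the replicate block, robust eBayes and limma without trend leave each change as it is, so they could not move a median. The replicate block called 118 members, 52 higher and 66 lower. The labels do not say whether same-numbered libraries were made together. Deviations of same-numbered libraries correlated at -0.022, 0.007 and -0.031, which does not settle whether they were paired. With 1 library left out, 162 to 196 members were called, 79 to 103 higher and 82 to 93 lower, and the medians were 0.12 to 0.15 for the chromosome, -0.39 to -0.36 for the short arm, 0.27 to 0.32, 0.34 to 0.38 and 0.20 to 0.23 for the long arm parts, and -0.45 to -0.43, -0.11 to -0.051, 0.34 to 0.38 and -0.96 to -0.94 for runs 1 to 4. Border 1 then lay at 30.7 to 38.8 Mb, border 2 at 70.7 to 70.8 Mb and border 3 at 182.9 Mb.

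With a pseudocount of 0.1 the medians were 0.18 for the chromosome, -0.40 for the short arm, 0.33, 0.37 and 0.25 for the long arm parts, and -0.47, 0.39 and -1.14 for runs 1, 3 and 4. With 0.01 they were 0.18, -0.41, 0.33, 0.37, 0.25, -0.48, 0.39 and -1.14. Plain ratios gave 0.17 for the chromosome, -0.43 for the short arm, 0.38 and 0.25 for the middle and end parts, and -0.47, 0.39 and -1.13 for runs 1, 3 and 4. A minimum of 5 FPKM gave 0.15, -0.39, 0.25 for the end part, and -0.45, -0.12 and -1.05 for runs 1, 2 and 4. Scaling by the median of ratios gave 0.17, -0.36 and -0.42 for the chromosome, the short arm and run 1, and quantile normalization 0.13 and -0.36 for the first 2. Border 1 moved to 37.6 Mb with either pseudocount, the higher minimum, quantile normalization and plain ratios. Border 2 moved to 70.8 Mb with either pseudocount and plain ratios and to 57.0 Mb with the higher minimum. The cause of these moves was not tested, except that a smaller pseudocount shrinks changes of low genes less.

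Of 93 named genes, 75 were called, 50 of these under all alternatives, and 4 of the other 18 (BMP2K, KDR, H2AFZ and UTP3) gained a call under at least 1. Sign changed for genes that were not called: with 1 library left out, HTN3 ranged from -0.10 to 0.082 (above 0 without shCtrl 2 or, at 0.065, shHOTAIR 3), RUFY3 from -0.020 (without shHOTAIR 2) to 0.14, AREG from -0.21 to 0.012 (without shCtrl 1) and STBD1 from -0.014 (without shCtrl 3) to 0.21. Read depth is not known, so values under 1 FPKM carry an unknown counting error.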
